A study of Mus musculus with 21 samples.

Results

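The gene expression difference between Py8119 and Py117, mouse mammary carcinoma lines from transgenic MMTV-PyMT mice, was compared between tumours and culture. The quantity examined for each of 22180 genes was the line by setting interaction: the Py8119 minus Py117 difference in tumours less the same difference in culture, both on the log2 scale. A positive interaction means that Py8119 stood higher relative to Py117 in tumours than in culture, and a negative one that it stood lower. It was computed from 16 of the 21 arrays of the series, namely 5 Py8119 tumours, 5 Py117 tumours, 3 Py8119 cultures and 3 Py117 cultures, and it included every gene with a probe set assigned to a single symbol. The remaining 5 arrays are tumours grown from both lines mixed 1 to 1, which were set beside the others but took no part in the interaction.

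The series concerns immune responses to radiation, in which it calls Py117 clones sensitive and Py8119 clones resistant, but every sample here was untreated. Tumours grew from cells injected in Matrigel into the mammary fat pad, and cultured cells were kept in medium with fetal bovine serum. All 4 groups carry the MMTV-PyMT transgene by origin, the host strain is not given in the labels, and each line is a single clone, so a line difference here is a difference between 2 clones. The labels call the arrays of a group biological replicates, numbered within the group.

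In MMTV-PyMT mice the polyoma middle T oncoprotein, under a mammary tumour virus promoter, drives mammary carcinoma, and clones from such tumours range from epithelial to mesenchymal in character. A tumour is a mixture: the array reads RNA of carcinoma cells together with that of host macrophages, lymphocytes, fibroblasts, vessels and fat, none of which is present in a dish. A difference between 2 lines in tumours can therefore come from the carcinoma cells, from the host cells that each tumour holds, or from both, and in bulk RNA fewer cells of a type and less RNA per cell cannot be told apart. Cultured lines show what the carcinoma cells express by themselves.

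Array medians ranged from 5.24 to 5.53 log2 units over the 21 arrays, and arrays of the same group correlated at 0.97 to 0.99. As a guide to background, the 1394 olfactory and vomeronasal receptor genes measured had a 95th percentile of 5.36. The cultures lacked host signal by that guide: Ptprc, the pan-leukocyte antigen CD45, averaged 9.03 in Py8119 tumours and 10.01 in Py117 tumours, against 4.43 in Py8119 cultures and 4.74 in Py117 cultures. Epcam, an epithelial adhesion molecule, was near background in Py8119 (5.13 ± 0.45 in tumours and 5.07 ± 0.21 in culture, SD) and high in Py117 (10.27 ± 0.27 and 10.58 ± 0.19). Xist, the X inactivation RNA, read below the guide in the Py8119 cultures (mean 4.50) and at 9.24 in Py8119 tumours.

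The line difference depended on the setting for 2992 genes, 13.5% of those tested (limma, Benjamini-Hochberg adjusted p below 0.05 over all genes). Of these, 1664 had a positive interaction (7.5%) and 1328 a negative one (5.99%). The called interaction reached 1 log2 unit in size for 612 positive and 648 negative genes. The median over all genes was 0.03. The line difference itself was called for 8116 genes in tumours (36.6%) and for 5754 in culture (25.9%), so most genes that separate the lines do so without a called interaction.

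Called genes were sorted by where the line difference was present (adjusted p below 0.05 and at least 1 log2 unit) and where it was absent (adjusted p of 0.05 or more and under 0.5 log2 units). A difference appeared in tumours for 492 genes, of which 333 were lower in Py8119 tumours (1.5% of all genes) and 159 higher (0.717%). It vanished in tumours for 207 genes, of which 137 had been lower in cultured Py8119 (0.618%) and 70 higher (0.316%). It reversed for 15 genes, 7 becoming higher in Py8119 (0.0316%) and 8 becoming lower (0.0361%). Among the rest, a difference of the same sign widened for 108 genes (0.487%) and narrowed for 140 (0.631%), and 2030 (67.8% of the called genes) met none of these definitions, 1548 of them with an interaction under 1 log2 unit. The count for differences higher in cultured Py8119 that vanished depends on a single array: it was 122 without Py8119 culture 1.

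**Figure D1:**
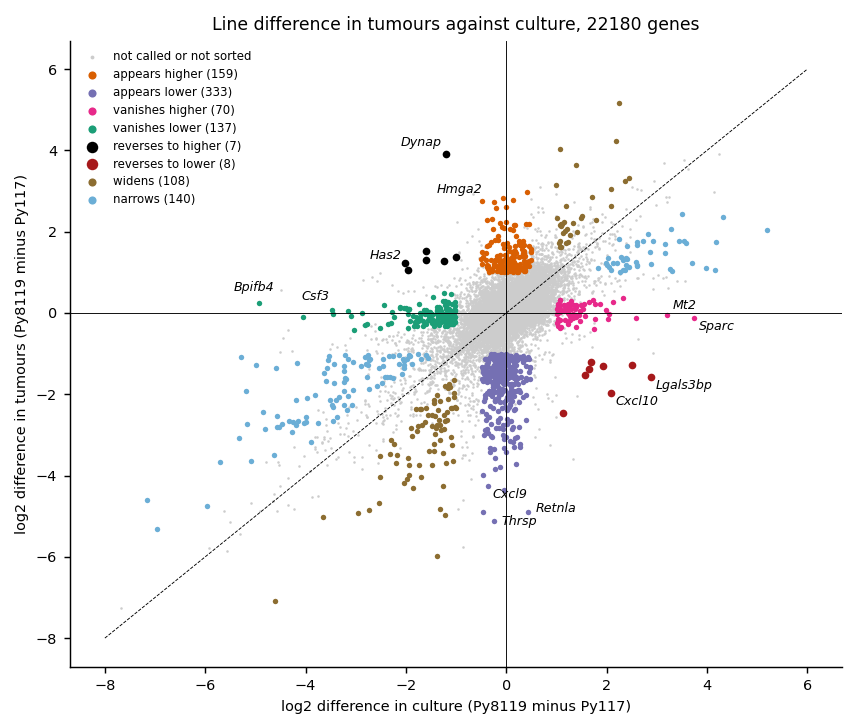
The Py8119 minus Py117 difference in log2 units in tumours (vertical axis) is plotted against that in culture (horizontal axis) for 22180 genes, 1 point a gene, with the sorted genes coloured and the dashed line marking equal differences. Genes that appear lie along the vertical axis, with 333 below 0 and 159 above it. Genes that vanish lie along the horizontal axis, and the 15 that reverse lie in the upper left and lower right of the plot.

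The class edges are sharp cuts through a continuous range. Mxra8 (a tumour difference of 1.0033) and Papss1 (-1.0035) were the appearing genes closest to the limit, and E030003E18Rik (-0.9975) and Enpep (-0.9965) were the closest left out. Among vanishing genes Smpdl3b (a culture difference of 1.002) and Bmp2 (1.0117) lay just inside, and Npc1 (0.9973) and Commd3 (-0.9967) just outside.

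The classes differed in which line changed between dish and tumour. For differences that appeared with Py8119 lower, Py117 was higher in tumours than in its own culture for 325 of 333 genes, with a median change of 2.18 log2 units. Py8119 was also higher in its tumours for 148 of these genes and lower for 21, with a median change of 0.46. Of the 333 genes, 142 (42.6%) were below the background guide in both cultures, against 14.4% of called genes and 37.5% of all genes. A line difference between cultures that are both at background was not detectable. Among the 159 genes that appeared with Py8119 higher, 30 (18.9%) were below the guide in both cultures. For differences that appeared with Py8119 higher, the change was shared between the lines: Py8119 was higher in tumours than in culture for 91 of 159 genes, and Py117 was lower for 90. Where a lower level of Py8119 vanished, Py117 was lower in tumours for 92 of 137 genes and Py8119 was higher for 69. Where a higher level of Py8119 vanished, Py117 was higher in tumours for 42 of 70 genes and Py8119 was lower for 39. As background for these counts, 34.9% of all genes differed between Py8119 tumours and cultures and 35.7% between Py117 tumours and cultures. By direction, 14.8% of all genes were called higher and 20.1% lower in Py8119 tumours than in Py8119 cultures, and 14.3% were called higher and 21.5% lower in Py117 tumours than in Py117 cultures. These comparisons share arrays with the interaction, so the counts describe the classes and do not test them.

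**Figure D2:**
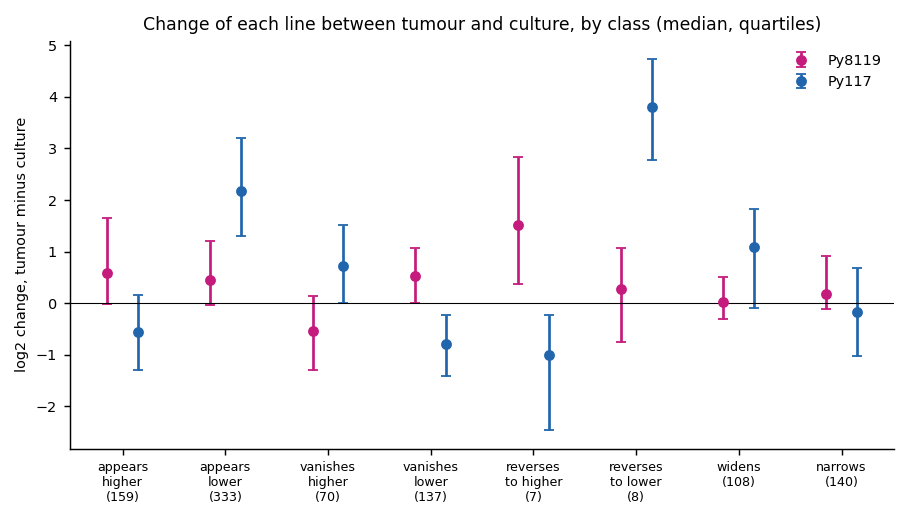
The change of each line between tumour and culture (log2, tumour minus culture) is shown for each class as the median over its genes, with bars for the quartiles; the number of genes is given under the class name. Genes that appear lower and genes that reverse to lower have a median Py117 change of 2.18 and 3.81, against 0.46 and 0.28 in Py8119.

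The lists of genes by pathway and cell type divided by direction. Those with the largest share of negative calls were type I interferon response (27 of 33 measured genes), interferon-gamma induced (19 of 24), endothelial (15 of 22), fibroblast (16 of 24) and MHC class I presentation (9 of 14), against 5.99% of all genes. Those with the largest share of positive calls were cholesterol synthesis (11 of 18), immediate early (9 of 20) and macrophage and monocyte (12 of 33), against 7.5% of all genes. No member of the type I interferon, interferon-gamma, endothelial or MHC class I lists had a positive call, and none of the cholesterol or immediate early lists had a negative one. With single arrays left out, the type I interferon count stayed between 25 and 28, the endothelial and fibroblast counts between 12 and 17, the cholesterol count between 10 and 13 and the macrophage count between 9 and 13.

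**Figure D3:**
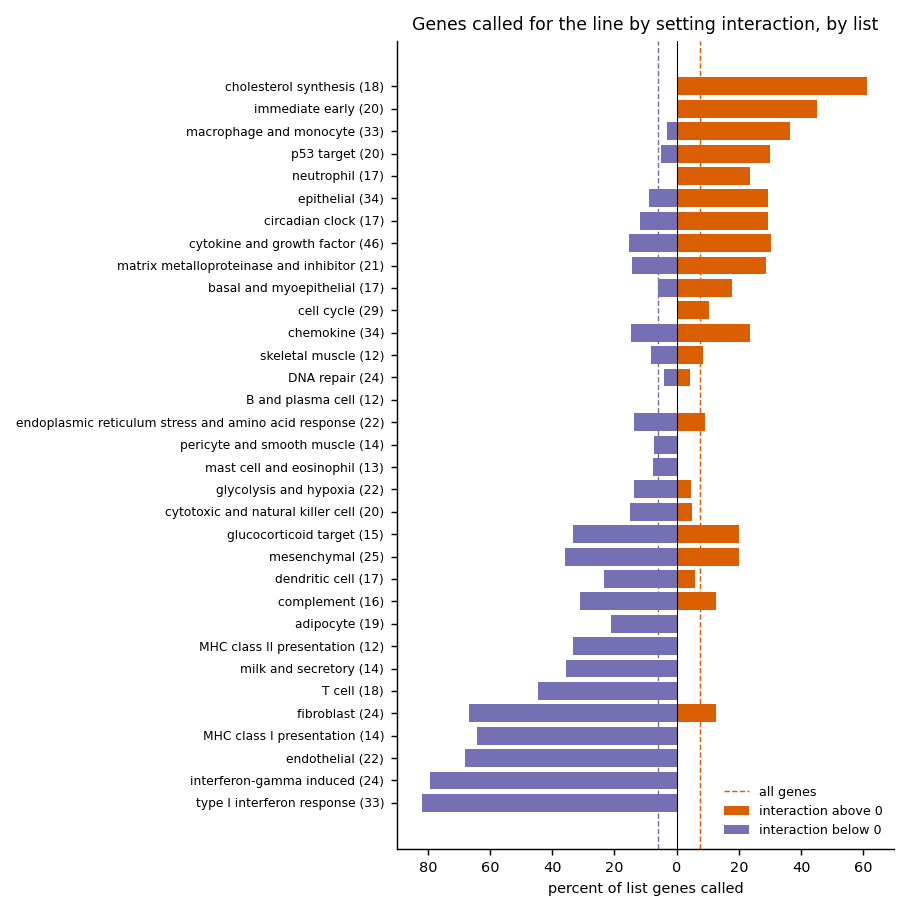
For each gene list with at least 10 measured genes (number in brackets), bars give the percentage of its genes called for the interaction, negative calls to the left of 0 and positive calls to the right; dashed lines mark 5.99% and 7.5%, the shares over all genes. Interferon, endothelial, MHC class I and fibroblast lists extend furthest left and cholesterol synthesis furthest right.

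Interferon-induced genes were among the differences that appeared: of the 492 genes, 19 are in the type I list and 10 in the interferon-gamma list. Interferons are cytokines that start an antiviral and antigen-presenting programme. Type I interferons are made by many cell types and act in part through a DNA element of repeated TTTC or GAAA, and interferon-gamma is a product of T and NK cells. In culture most of these genes read at a similar level in both lines, and in tumours Py117 stood well above Py8119. Of the 24 interferon-gamma genes, 4 were called higher in cultured Py8119 and none lower, against 13.9% and 12% of all genes. Of the 33 type I genes 6 were below the background guide in both cultures, and of the 24 interferon-gamma genes 9 were. The median line difference over the 33 type I genes was -1.89 in tumours and 0.04 in culture, and over the 24 interferon-gamma genes it was -1.47 in tumours and 0.08 in culture, against medians of 0.01 and -0.01 over all genes. Of the 27 called type I genes, 19 fell in the class that appears, as did 10 of the 19 called interferon-gamma genes.

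Irf7, the transcription factor that amplifies type I interferon output, read 7.03, 6.59, 7.01, 7.51 and 7.52 in the 5 Py8119 tumours and 10.12, 10.68, 11.43, 10.29 and 10.31 in the 5 Py117 tumours. It read 5.53, 5.54 and 5.46 in Py8119 cultures and 5.44, 5.43 and 5.71 in Py117 cultures. All Py117 tumours were above all Py8119 tumours, both sets of tumours were above all cultures, and the cultures of the lines overlapped. The line difference was -3.43 in tumours (10.8-fold lower in Py8119) and -0.01 in culture, and the interaction was -3.42 (SE 0.35, adjusted p = 3.81e-06).

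Ifit1, which binds foreign RNA, showed a similar interaction of -4.10 (SE 0.45, adjusted p = 7.89e-06). It averaged 6.91 ± 0.46 in Py8119 tumours and 10.14 ± 0.65 in Py117 tumours (SD, n = 5 each), with 5.83 ± 0.17 in Py8119 cultures and 4.97 ± 0.44 in Py117 cultures (n = 3 each). Its culture difference of 0.86 (adjusted p = 0.0848) was neither small enough to count as absent nor called, so Ifit1 belongs to no class. Cmpk2, a mitochondrial nucleotide kinase, and Rtp4, an interferon-induced chaperone of receptors, had interactions of -3.32 (adjusted p = 0.000314) and -3.05 (adjusted p = 6.74e-07).

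Cxcl9, a chemokine induced by interferon-gamma that attracts T cells through CXCR3, read 6.73, 7.06, 8.29, 8.33 and 7.20 in Py8119 tumours and 10.52, 11.78, 12.76, 12.18 and 11.64 in Py117 tumours. In culture it read 5.46, 6.49 and 4.95 in Py8119 and 5.59, 6.40 and 6.01 in Py117. Every Py117 tumour was above every Py8119 tumour without a close pair, while the cultures overlapped. The line difference in tumours was -4.25, a 19.1-fold lower signal in Py8119, and the interaction was -3.89 (SE 0.65, adjusted p = 0.000503).

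Other members of the interferon-gamma list moved alike. Iigp1, a GTPase that attacks the vacuoles of intracellular pathogens, averaged 7.18 ± 0.43 in Py8119 tumours and 11.55 ± 0.61 in Py117 tumours, below background in both cultures (4.26 and 4.31), with an interaction of -4.31 (SE 0.45, adjusted p = 4.32e-06). Gbp4, a guanylate-binding protein, averaged 5.33 ± 0.10 in Py8119 tumours, no higher than background, against 8.93 ± 1.46 in Py117 tumours, and its interaction was -4.93 (SE 0.78, adjusted p = 0.000307). It read 4.57, 5.24 and 4.61 in Py8119 cultures and 2.99, 3.96 and 3.47 in Py117 cultures, all below the background guide. Part of that interaction is thus a difference between cultures that were both at background. Cd274, the checkpoint ligand PD-L1, had an interaction of -1.40 (SE 0.42, adjusted p = 0.0362), with a tumour difference of -0.90 and a culture difference of 0.50. Its call was lost when any of 10 of the 16 arrays was left out.

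The antigen presentation genes followed. Of 14 class I genes 9 were called, all negative, and H2-K1, a classical class I heavy chain, averaged 10.05 ± 0.25 in Py8119 tumours and 11.60 ± 0.55 in Py117 tumours, with an interaction of -1.46 (SE 0.34, adjusted p = 0.00697). The peptide transporter subunits Tap1 and Tap2 had interactions of -2.08 (adjusted p = 0.000384) and -1.67 (adjusted p = 0.00394). H2-Q4 was called at -2.55, but a second, dimmer probe set for it gave -0.06. Of 12 class II genes 4 were called, all negative (5.99% of all genes), including the chains H2-Aa (-2.03), H2-Eb1 (-1.91) and H2-Ab1 (-1.66). H2-Ab1 was high in every tumour, at 10.97 ± 0.26 in Py8119 and 12.54 ± 0.36 in Py117, against 5.80 and 5.72 in the cultures.

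The spread among Py117 tumours was shared by these genes. The mean of the type I list was 6.87 to 7.27 in Py8119 tumours and 8.38 to 9.72 in Py117 tumours, and that of the interferon-gamma list was 6.67 to 7.02 and 7.84 to 9.73. Py117 tumour 3 was the highest array for both lists. Cultures spanned 5.87 to 6.13 in Py8119 and 5.98 to 6.07 in Py117 for the type I list. For the interferon-gamma list they spanned 5.603 to 5.756 in Py8119 and 5.363 to 5.435 in Py117, without overlap.

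The promoters of interferon-responsive genes are shown because many of them hold a recognisable sequence pattern. The pattern searched was TTTC, any 2 bases and TTTC again, or its reverse complement, GAAA, any 2 bases and GAAA, so that both strands were covered, with overlapping matches counted, in RefSeq promoters of mouse build GRCm38.p6 from 250 bases before to 50 after the gene start. Promoters were found for 25 of the 33 type I genes and 15 of the 24 interferon-gamma genes. The pattern occurred in 14 of the 30 promoters of the type I list (46.7%), in 8 of 18 for the interferon-gamma list (44.4%), in 10 of 21 for the called type I genes alone (47.6%) and in 1131 of all 32851 promoters (3.44%). Among differences that appeared with Py8119 lower, 26 of 271 promoters held it (9.59%), and among those that appeared with Py8119 higher 3 of 143 (2.1%). The match describes sequence only. Ifit1, Cxcl10 and Bst2, named members with all matches in the 250 bases before the start, are printed below as examples. They run 5′ to 3′ on the gene's strand, with matches in capitals. The printed set is not complete, and other members of these lists, such as Isg15 and Igtp, hold matches as well. Ifit1 lies at chr19:34640639-34640888 on the plus strand, with matches beginning 104 and 85 bases before the start. Cxcl10 lies at chr5:92348890-92349139 on the minus strand, with 1 match beginning 213 bases before the start. Bst2 lies at chr8:71537473-71537722 on the minus strand, with overlapping matches that begin 130 and 124 bases before the start.
Ifit1: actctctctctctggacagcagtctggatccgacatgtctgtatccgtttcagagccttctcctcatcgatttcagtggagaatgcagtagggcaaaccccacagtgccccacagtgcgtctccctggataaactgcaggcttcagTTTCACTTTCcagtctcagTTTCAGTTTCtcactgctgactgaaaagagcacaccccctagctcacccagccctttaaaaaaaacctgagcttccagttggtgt
Cxcl10: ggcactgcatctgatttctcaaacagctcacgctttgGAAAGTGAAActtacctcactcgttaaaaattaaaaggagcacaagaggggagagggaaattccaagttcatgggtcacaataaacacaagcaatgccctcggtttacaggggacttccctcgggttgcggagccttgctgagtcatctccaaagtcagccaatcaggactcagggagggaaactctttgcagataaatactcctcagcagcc
Bst2: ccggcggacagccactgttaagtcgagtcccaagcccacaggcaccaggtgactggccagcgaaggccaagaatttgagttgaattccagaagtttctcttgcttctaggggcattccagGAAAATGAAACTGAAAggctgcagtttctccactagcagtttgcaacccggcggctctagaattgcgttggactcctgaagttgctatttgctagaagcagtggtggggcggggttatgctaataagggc

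Of the 8 genes whose line difference reversed to lower in Py8119 tumours, Bst2 is in the type I interferon list and Cxcl10 in the interferon-gamma list. Cultured Py8119 expressed all 8 above cultured Py117, and in tumours the order was the opposite. Py117 was called higher in tumours than in culture for all 8, with a median change of 3.81 log2 units. These 8 were Lgals3bp, Cxcl10, Kcnk5, Egln3, Sp100, Ddah1, Bst2 and Col3a1.

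Cxcl10, a second CXCR3 ligand, read 7.31, 7.48, 7.62, 7.74 and 7.63 in Py8119 tumours and 8.19, 9.38, 11.34, 9.45 and 9.28 in Py117 tumours. In culture it read 8.09, 8.28 and 7.82 in Py8119 and 5.88, 6.12 and 5.92 in Py117. No tumour of Py8119 reached the lowest tumour of Py117, and every Py8119 culture was above every Py117 culture. Py117 tumours were 3.55 above Py117 cultures (adjusted p = 2.91e-06), while the Py8119 tumour minus culture difference of -0.50 did not pass the threshold (adjusted p = 0.396). The line difference was -1.97 in tumours (adjusted p = 0.00027) and 2.08 in culture (adjusted p = 0.00265), and the interaction was -4.05 (SE 0.59, adjusted p = 0.000156).

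Lgals3bp, a secreted galectin-binding glycoprotein, had the reversal with the smallest adjusted p. It read 10.25, 10.33, 10.12, 10.40 and 10.42 in Py8119 tumours and 11.68, 11.84, 12.32, 11.74 and 11.76 in Py117 tumours, with 9.49, 9.40 and 9.10 in Py8119 cultures and 6.47, 6.50 and 6.37 in Py117 cultures. The groups were separate in both settings and in opposite order, and the interaction was -4.44 (SE 0.19, adjusted p = 3.72e-10). A second probe set for Lgals3bp gave a line difference of -1.41 in tumours but only 0.13 in culture, so the culture side of the reversal rests on the brighter probe set.

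Bst2, or tetherin, which holds budding virus at the cell surface, and Sp100, a nuclear body protein, showed the same order. Bst2 read 9.93, 10.25, 10.25, 10.02 and 10.57 in Py8119 tumours and 11.004, 11.82, 12.31, 11.38 and 11.44 in Py117 tumours. Its culture values were 9.27, 9.10 and 9.20 in Py8119 and 7.71, 7.54 and 7.34 in Py117, so that the lines did not overlap in either setting and exchanged order. Its interaction was -3.05 (SE 0.30, adjusted p = 2.96e-06) and that of Sp100 was -3.23 (SE 0.27, adjusted p = 4.51e-07). Sp100 averaged 8.18 ± 0.12 in Py8119 tumours and 9.47 ± 0.36 in Py117 tumours, against 6.90 ± 0.09 and 4.96 ± 0.43 in the cultures. Of its 3 other probe sets, 1 also reversed (-1.08 in tumours and 1.71 in culture), and the others gave -1.79 and -0.37 in tumours with 0.34 and 0.16 in culture, short of a reversal.

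Egln3, a prolyl hydroxylase that marks hypoxia-inducible factor for destruction and is itself induced by hypoxia, read 8.57, 8.49, 8.37, 8.18 and 8.48 in Py8119 tumours and 10.54, 10.32, 10.63, 10.53 and 12.38 in Py117 tumours. The cultures read 9.04, 8.66 and 8.83 in Py8119 and 7.91, 7.48 and 7.75 in Py117. The groups were again separate in both settings, Py117 tumour 5 stood far above the other tumours, and the interaction was -3.59 (SE 0.46, adjusted p = 3.67e-05). Of the 22 glycolysis and hypoxia genes 3 were called negative and 1 positive, against 5.99% and 7.5% of all genes. The positive one was Car9, also induced by hypoxia, whose values are given below. Besides Egln3 the negative ones were Adm, which encodes the vasodilator adrenomedullin (-1.94), and Pfkfb3, a regulator of glycolysis (-1.13). The negative count was 12 without Py117 tumours 1, 4 and 5, and 10 with the adipocyte-list mean as a covariate. Ddah1, which degrades an inhibitor of nitric oxide synthesis, averaged 8.40 ± 0.22 in Py8119 tumours and 9.93 ± 0.27 in Py117 tumours, with 9.87 ± 0.04 and 8.30 ± 0.21 in culture, an almost symmetrical exchange (interaction -3.10, SE 0.22, adjusted p = 8.72e-08).

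Kcnk5, a potassium channel, met the definition through part of the tumours. It read 5.53, 5.45, 5.94, 5.66 and 5.62 in Py8119 tumours and 7.80, 5.60, 5.57, 7.07 and 8.52 in Py117 tumours, against 7.99, 8.07 and 8.03 in Py8119 cultures and 5.18, 5.67 and 5.73 in Py117 cultures. Py117 tumours 2 and 3 lay within the Py8119 range, and the high values belonged to tumours 1, 4 and 5. These are the Py117 tumours with the highest adipocyte-list mean (8.63, 7.89 and 8.69, against 6.78 and 6.74 in tumours 2 and 3 and 6.11 to 6.68 in Py8119 tumours). The interaction was -3.77 (SE 0.68, adjusted p = 0.00106) and stayed called at -2.45 without those 3 tumours. Only Py117 tumours 2 and 3 remain in that fit, so the -2.45 reflects the culture difference and not a reversal.

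**Figure D4:**
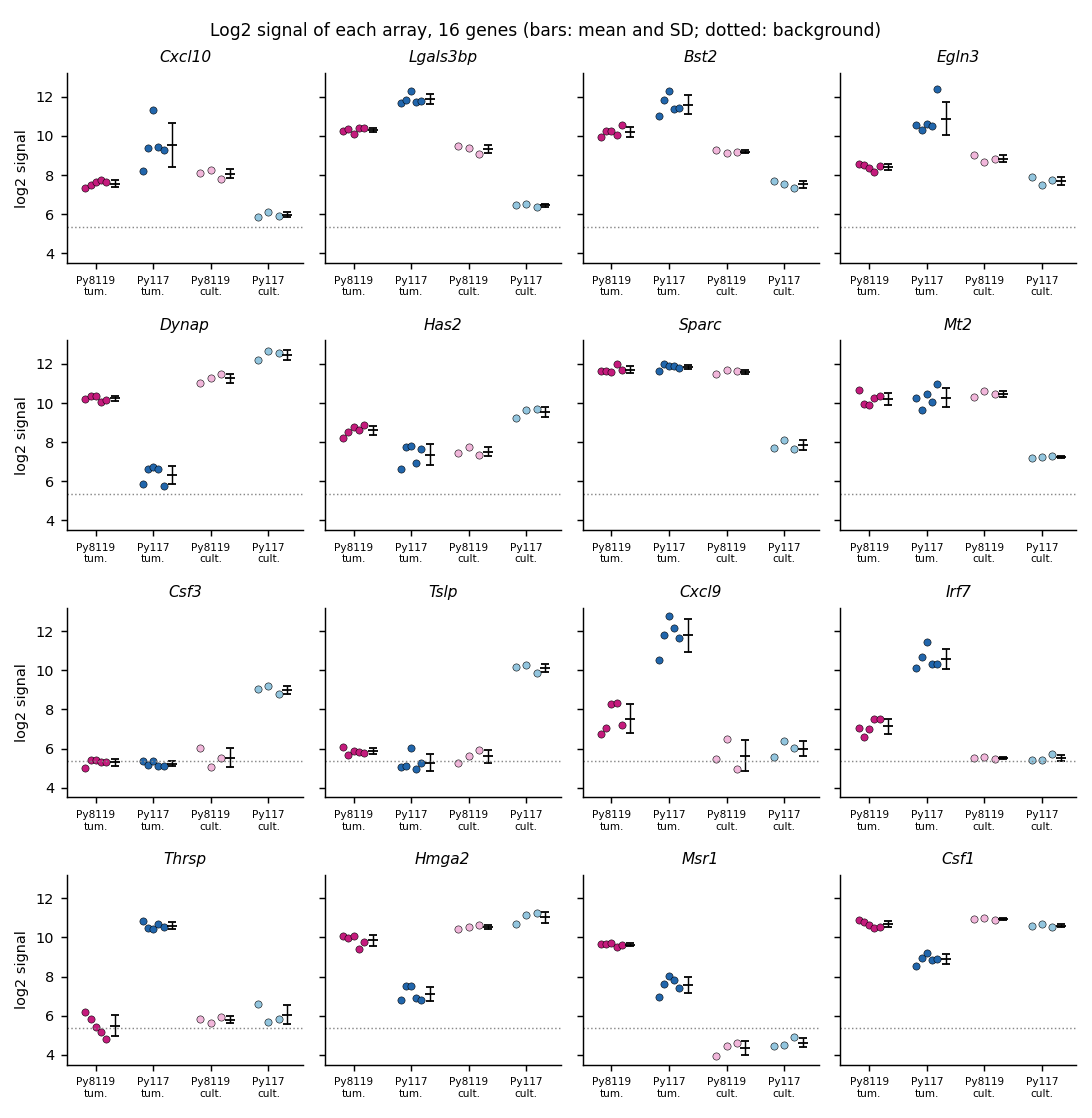
Log2 signal of each array for 16 genes that carry the results, with the mean and SD beside each group and a dotted line at the background guide of 5.36; groups run from Py8119 tumours, Py117 tumours and Py8119 cultures to Py117 cultures. In the top row (Cxcl10, Lgals3bp, Bst2, Egln3) the order of the lines in tumours is opposite to that in culture, and in the third row Csf3 and Tslp are high only in Py117 cultures.

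Markers of vessels and connective tissue made up a further part of the differences that appeared. Endothelial markers were at or near background in culture and lower in Py8119 tumours than in Py117 tumours: the line difference in tumours was called for all 22 listed genes, all lower in Py8119 (16% of all genes were called lower), and the interaction for 15. The list mean was 6.42 to 6.75 in Py8119 tumours and 7.44 to 8.19 in Py117 tumours, against 5.22 to 5.49 in Py8119 cultures and 5.46 to 5.57 in Py117 cultures, and 9 of the 22 genes were below the background guide in both cultures. The interaction count of 15 was 11 with the adipocyte-list mean as a covariate and 11 without Py117 tumours 1, 4 and 5.

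Cdh5, the cadherin of endothelial junctions, read 8.51, 8.33, 8.89, 8.95 and 8.64 in Py8119 tumours and 10.65, 10.47, 9.84, 10.46 and 10.70 in Py117 tumours. Its cultures averaged 5.95 ± 0.52 in Py8119 and 5.86 ± 0.12 in Py117. The tumours of the lines did not overlap, and the interaction was -1.85 (SE 0.31, adjusted p = 0.00047). Emcn, an endothelial sialomucin, Kdr, the main receptor for VEGF-A, and Tek, the angiopoietin receptor, had interactions of -2.27, -1.85 and -1.81 (adjusted p = 0.00011, 0.000184 and 0.00258).

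Of 24 fibroblast genes, 16 were called negative and 3 positive. Dcn, a small proteoglycan of connective tissue, averaged 8.72 ± 0.48 in Py8119 tumours and 10.74 ± 0.41 in Py117 tumours, with 4.44 ± 0.40 in Py8119 cultures and 4.04 ± 0.15 in Py117 cultures, and its interaction was -2.42 (SE 0.37, adjusted p = 0.00023). Lum, a related proteoglycan, had an interaction of -3.03 (SE 0.57, adjusted p = 0.00138), and Col1a2, a chain of type I collagen, of -2.80 (SE 0.45, adjusted p = 0.000391). Col3a1, the chain of type III collagen, belongs to the genes that reversed: it read 9.20, 9.18, 9.68, 10.23 and 9.73 in Py8119 tumours and 10.12, 11.41, 11.28, 10.44 and 10.80 in Py117 tumours, against 7.44, 6.73 and 7.23 in Py8119 cultures and 5.24, 5.25 and 5.84 in Py117 cultures. One Py8119 tumour, the fourth, lay above the lowest Py117 tumour, and the interaction was -2.89 (SE 0.41, adjusted p = 0.000107). The fibroblast-list mean was 8.09 to 8.73 in Py8119 tumours and 8.80 to 9.81 in Py117 tumours, and 6.49 to 6.62 and 6.17 to 6.26 in the cultures. Only 7 of the 24 fibroblast genes were below the background guide in both cultures, so the list is not specific to host cells here. The part of these vessel and connective tissue markers in the other differences that appeared was not tested.

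T cell markers were lower in Py8119 tumours for 18 of 18 listed genes (16% of all genes), and the interaction was called for 8, all negative (5.99% of all genes). The list mean was 5.51 to 5.72 in Py8119 tumours and 6.25 to 7.31 in Py117 tumours, and 10 of the 18 were below the background guide in both cultures. Cd3g, a chain of the T cell receptor complex, read 5.49, 5.19, 6.03, 5.56 and 5.41 in Py8119 tumours and 7.43, 6.89, 7.21, 9.08 and 8.29 in Py117 tumours, with an interaction of -2.82 (SE 0.50, adjusted p = 0.000808). The tumours of the lines did not overlap, and Py117 tumours 4 and 5 were highest. Cd8a and Cd8b1, the chains of the cytotoxic co-receptor, had interactions of -1.49 and -1.51 (adjusted p = 0.0274 and 0.00715). The Cd8a call was lost in 6 of the 16 fits without a single array, and the list count was 4 without Py117 culture 1, 12 without Py117 tumour 2 and 3 with the adipocyte-list mean as a covariate. None of the 12 B and plasma cell genes was called (limma), and the list mean ranged from 5.10 to 5.37 in Py8119 tumours and 5.22 to 5.44 in Py117 tumours.

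The 3 largest negative interactions among genes that appeared were not interferon genes. Thrsp, a nuclear protein that promotes fatty acid synthesis, read 6.20, 5.83, 5.41, 5.17 and 4.82 in Py8119 tumours and 10.85, 10.50, 10.44, 10.69 and 10.55 in Py117 tumours. It read 5.84, 5.61 and 5.95 in Py8119 cultures and 6.59, 5.70 and 5.82 in Py117 cultures. The 5 Py117 tumours were close to each other and far above every other array of the 4 groups. The line difference in tumours was -5.12 (34.7-fold lower in Py8119), and the interaction was -4.88 (SE 0.35, adjusted p = 1.10e-07). Thrsp is also in the adipocyte list, and its interaction was -4.72 with the mean of that list as a covariate and -4.74 without Py117 tumours 1, 4 and 5.

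Retnla, a secreted product of alternatively activated macrophages that is also made by fat, was far more variable. It read 5.16, 3.94, 3.86, 6.27 and 5.74 in Py8119 tumours and 10.23, 10.10, 9.51, 7.58 and 12.01 in Py117 tumours, below background in all 6 cultures. The tumours of the lines did not overlap, and the interaction was -5.32 (SE 1.04, adjusted p = 0.00194). Elapor1, a transmembrane protein of the endosomal system, read 5.11, 5.20, 5.16, 5.48 and 5.17 in Py8119 tumours, all near background, and 11.27, 9.57, 8.02, 9.94 and 11.84 in Py117 tumours. Its highest values were in tumours 1 and 5, where the adipocyte-list mean was also highest. The interaction was -4.44 (SE 0.78, adjusted p = 0.000776), and it was -2.64 with the adipocyte-list mean as a covariate.

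Milk protein, secretory and complement genes were also among the differences that appeared. Csn3, the milk protein kappa-casein, averaged 4.74 ± 0.23 in Py8119 tumours and 8.73 ± 0.79 in Py117 tumours, with 4.98 ± 0.35 in Py8119 cultures and 5.45 ± 0.33 in Py117 cultures (interaction -3.52, SE 0.46, adjusted p = 4.95e-05). Mfge8, a milk fat globule protein that bridges dying cells to phagocytes, had an interaction of -1.75 (adjusted p = 3.47e-07). Bpifb1, a secreted protein of airway and salivary epithelium, averaged 5.19 ± 0.30 in Py8119 tumours and 8.98 ± 0.65 in Py117 tumours against 5.59 and 5.71 in the cultures (interaction -3.66, SE 0.38, adjusted p = 4.21e-06). A4galt, which makes the globoside Gb3, and Nptx1, a neuronal pentraxin, behaved alike, with interactions of -3.62 and -3.91. Of 16 complement genes 5 were called negative and 2 positive, against 5.99% and 7.5% of all genes. Serping1, the C1 inhibitor, averaged 6.89 ± 0.66 in Py8119 tumours and 10.30 ± 0.42 in Py117 tumours (interaction -3.09, SE 0.42, adjusted p = 6.91e-05), and Cfb, factor B of the alternative pathway, had an interaction of -3.28 (adjusted p = 0.000188).

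Adipocyte markers were lower in Py8119 tumours for 15 of 19 listed genes (16% of all genes), and 4 were called for the interaction, all negative (5.99% of all genes). The list mean was 6.11 to 6.68 in Py8119 tumours and 6.74 to 8.69 in Py117 tumours, high in Py117 tumours 1, 4 and 5. Fabp4, the fatty acid binding protein of adipocytes, was called at -3.44 with an SE of 1.06. That call was lost in 13 of 16 fits without a single array, and the value was -1.32 without Py117 tumours 1, 4 and 5. Lpl, lipoprotein lipase, had an interaction of -2.30, and -1.11 without the same 3 tumours. The adipocyte count was 1 without Py117 culture 3.

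Differences that appeared with Py8119 higher included genes that were lower in Py117 tumours than in Py117 cultures, and macrophage genes. Hmga2, an architectural chromatin protein of embryonic and tumour cells, read 10.07, 9.99, 10.07, 9.40 and 9.78 in Py8119 tumours and 6.80, 7.51, 7.53, 6.90 and 6.80 in Py117 tumours. In culture it read 10.44, 10.54 and 10.64 in Py8119 and 10.69, 11.14 and 11.22 in Py117. Py117 tumours stood well below every other array, while the culture difference of -0.48 did not pass the threshold (adjusted p = 0.129). Every Py8119 culture nevertheless read below every Py117 culture. The tumour minus culture difference was -0.68 in Py8119 and -3.91 in Py117, and the interaction was 3.23 (SE 0.28, adjusted p = 6.81e-07).

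Cpe, a carboxypeptidase that trims prohormones, Aspa, which deacetylates N-acetylaspartate, and Aldh3a1, an aldehyde dehydrogenase, had the same form. Cpe averaged 11.07 ± 0.07 in Py8119 tumours and 8.29 ± 0.45 in Py117 tumours, with 10.87 ± 0.09 in Py8119 cultures and 10.73 ± 0.13 in Py117 cultures (interaction 2.63, SE 0.26, adjusted p = 2.37e-06). Aspa averaged 8.26 ± 0.14 and 5.42 ± 0.30 in the tumours of Py8119 and Py117, against 7.65 ± 0.04 and 7.71 ± 0.17 in their cultures (interaction 2.90, SE 0.20, adjusted p = 8.90e-08). Aldh3a1 had an interaction of 2.99 (SE 0.36, adjusted p = 2.18e-05).

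Csf1, the growth factor that macrophages depend on, belongs to this class as well. It read 10.87, 10.81, 10.65, 10.49 and 10.54 in Py8119 tumours and 8.54, 8.96, 9.21, 8.86 and 8.89 in Py117 tumours. It read 10.94, 10.99 and 10.90 in Py8119 cultures and 10.59, 10.71 and 10.52 in Py117 cultures. The tumours of the lines did not overlap, and Py117 tumours were below all other arrays. The cultures did not overlap either, with Py8119 higher by a smaller margin. The line difference was 1.78 in tumours (3.44-fold) and 0.34 in culture (adjusted p = 0.101), and the interaction was 1.44 (SE 0.18, adjusted p = 3.36e-05). Il34, the other ligand of the same receptor, was already higher in cultured Py8119 (1.07) and the difference widened to 2.17 in tumours (interaction 1.09, SE 0.19, adjusted p = 0.000675).

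Macrophage and monocyte markers were called positive for 12 of 33 genes. The list mean was 8.73 to 8.94 in Py8119 tumours and 8.20 to 8.64 in Py117 tumours, against 5.22 to 5.59 in Py8119 cultures and 5.47 to 5.60 in Py117 cultures, and 12 of the 33 were below the background guide in both cultures. Msr1, a scavenger receptor, read 9.68, 9.65, 9.70, 9.50 and 9.59 in Py8119 tumours and 6.96, 7.61, 8.04, 7.80 and 7.43 in Py117 tumours, with cultures of 4.35 in Py8119 and 4.62 in Py117. Tumours of the lines were separate, and the interaction was 2.33 (SE 0.28, adjusted p = 2.16e-05). Cx3cr1, the fractalkine receptor, had an interaction of 1.84 (SE 0.30, adjusted p = 0.000396). The myeloid receptors Clec4n (Dectin-2), Fcrls and Ccr1 had interactions of 2.78, 2.67 and 2.59 (adjusted p = 1.21e-05, 0.000139 and 1.45e-05). With the adipocyte-list mean as a covariate 7 genes of the list were called positive in place of 12. Gpnmb, a glycoprotein of macrophages and melanocytes, was the only member called negative (-2.11), and it was above background in Py8119 cultures (7.33 ± 0.20).

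Arg1, arginase, which depletes arginine and is made by tumour macrophages, was less stable. It read 9.61, 9.82, 9.66, 9.91 and 10.17 in Py8119 tumours and 5.89, 6.83, 6.51, 5.63 and 9.41 in Py117 tumours. The fifth Py117 tumour came close to the lowest Py8119 tumour, and the other 4 were far below. The interaction was 2.57 (SE 0.79, adjusted p = 0.0395), and the call was lost in 14 of 16 fits without a single array.

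Cholesterol synthesis genes were lower in Py117 tumours. The list mean was 8.72 to 8.93 in Py8119 tumours and 7.97 to 8.18 in Py117 tumours, with 8.84 to 9.16 in Py8119 cultures and 8.96 to 9.11 in Py117 cultures, so that the Py117 tumours alone stood apart. Fdps, which makes farnesyl diphosphate, read 9.77, 9.80, 9.79, 9.98 and 9.84 in Py8119 tumours and 8.27, 8.39, 8.54, 8.23 and 8.14 in Py117 tumours. The cultures read 9.95, 9.71 and 9.45 in Py8119 and 9.49, 9.52 and 9.55 in Py117. Py117 tumours were below all other arrays, and the interaction was 1.34 (SE 0.16, adjusted p = 2.18e-05). Msmo1, Fdft1 (squalene synthase) and Cyp51, later enzymes of the pathway, had interactions of 1.76, 1.57 and 1.24 (adjusted p = 6.47e-07, 1.92e-05 and 0.000948).

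**Figure D5:**
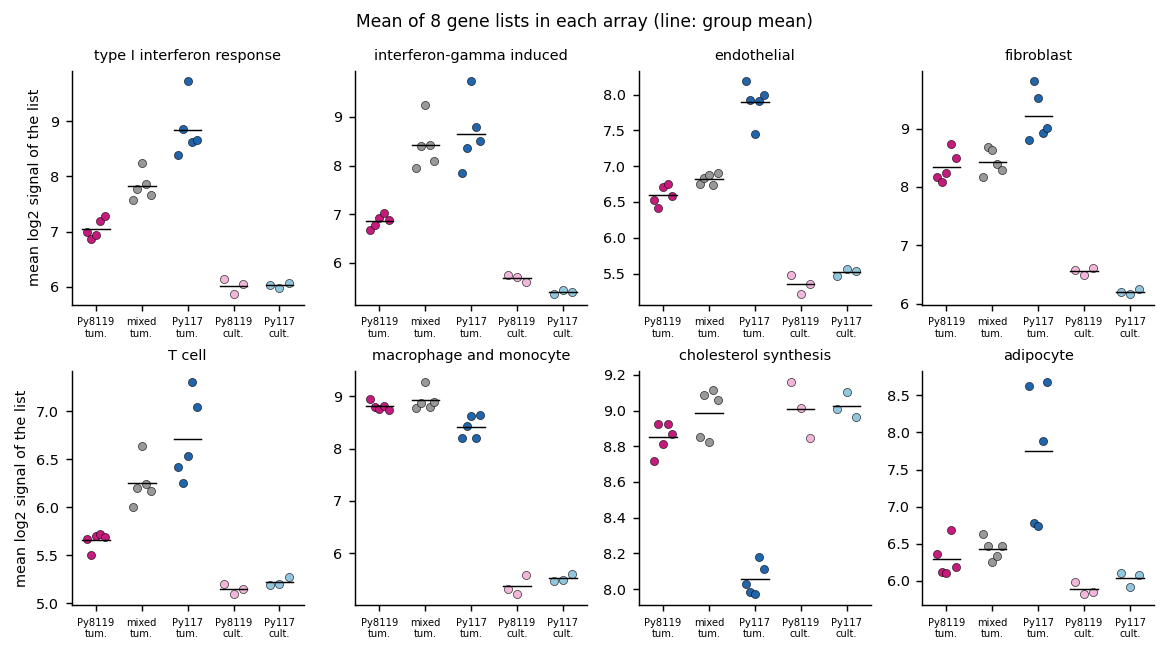
Mean log2 signal of the measured genes of 8 lists in each array, 1 point an array, with a line at the group mean; groups run from Py8119 tumours, mixed tumours and Py117 tumours to Py8119 and Py117 cultures. Type I interferon and endothelial means separate the tumours of the lines (7.27 at most in Py8119 and 8.38 at least in Py117 for type I interferon), and the cholesterol mean is low only in Py117 tumours.

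Among line differences that vanished with Py8119 higher in culture, Sparc and Mt2 had the largest interactions. Sparc, a collagen-binding matricellular protein, read 11.66, 11.63, 11.61, 11.98 and 11.69 in Py8119 tumours and 11.65, 11.98, 11.88, 11.90 and 11.79 in Py117 tumours. Cultures gave 11.47, 11.68 and 11.62 in Py8119 and 7.72, 8.13 and 7.68 in Py117. The 5 Py117 tumours overlapped with the Py8119 arrays of both settings, and only the Py117 cultures were low. A culture difference of 3.75 (13.4-fold) was thus replaced by -0.13 in tumours (95% interval -0.35 to 0.09), an interaction of -3.87 (SE 0.17, adjusted p = 3.91e-10). Fibroblasts also express Sparc strongly, and the fibroblast list moved with it; its part was not tested.

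Mt2, a metallothionein that binds zinc and copper, read 10.66, 9.94, 9.92, 10.28 and 10.34 in Py8119 tumours and 10.28, 9.63, 10.45, 10.06 and 10.996 in Py117 tumours, against 10.30, 10.60 and 10.46 in Py8119 cultures and 7.18, 7.24 and 7.32 in Py117 cultures. The tumours overlapped fully, with a difference of -0.06 (95% interval -0.47 to 0.35), and the interaction was -3.27 (SE 0.32, adjusted p = 2.37e-06). Mt1, its neighbour in sequence and function, showed a smaller culture difference of 1.40 and an interaction of -1.44 (SE 0.27, adjusted p = 0.00137). Calcrl, a receptor component for adrenomedullin, had an interaction of -2.07 (SE 0.25, adjusted p = 1.98e-05), with a tumour difference of -0.02 (95% interval -0.34 to 0.30) and Py117 cultures below background (4.69 ± 0.03).

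The other named genes of this set differed in which line changed. Pdlim1, an adaptor of the actin cytoskeleton, averaged 8.85 ± 0.04 in Py8119 tumours and 8.98 ± 0.22 in Py117 tumours, with 10.21 ± 0.16 in Py8119 cultures and 7.62 ± 0.28 in Py117 cultures (interaction -2.72, SE 0.19, adjusted p = 7.21e-08). Slco4a1, an organic anion transporter, was lost by Py8119: it averaged 5.52 ± 0.20 and 5.66 ± 0.22 in the tumours of Py8119 and Py117, against 7.67 ± 0.33 and 5.65 ± 0.10 in their cultures (interaction -2.17, SE 0.22, adjusted p = 3.33e-06). Ckap4, an endoplasmic reticulum membrane protein, had an interaction of -1.92, with tumour minus culture differences of -0.28 in Py8119 (adjusted p = 0.106) and 1.64 in Py117. Lgals9, a galectin, had an interaction of -2.16 and was higher in tumours than in culture in both lines (1.41 in Py8119 and 3.57 in Py117). Dsg1c, a desmoglein, was called at -1.94, but read 4.07 ± 0.26 and 3.70 ± 0.68 in the tumours, below background.

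Line differences that vanished with Py8119 lower in culture included Csf3, whose signal was higher in Py117 cultures than in any other group. Csf3, the granulocyte colony-stimulating factor G-CSF, read 4.997, 5.42, 5.42, 5.31 and 5.32 in Py8119 tumours and 5.36, 5.18, 5.37, 5.12 and 5.09 in Py117 tumours. In culture it read 6.02, 5.03 and 5.53 in Py8119 and 9.06, 9.18 and 8.78 in Py117. The Py117 cultures stood far above every other array, and the tumours of both lines were at background. The culture difference of -3.48 (11.2-fold lower in Py8119) was set against 0.07 in tumours (95% interval -0.24 to 0.38), and the interaction was 3.55 (SE 0.24, adjusted p = 6.28e-08). A difference between tumours that are both at background was not detectable.

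Tslp, an epithelial cytokine that acts on dendritic cells, had the largest interaction among the 46 measured genes of the cytokine and growth factor list. It read 6.10, 5.69, 5.87, 5.83 and 5.77 in Py8119 tumours and 5.05, 5.13, 6.05, 4.93 and 5.25 in Py117 tumours, against 5.28, 5.62 and 5.93 in Py8119 cultures and 10.17, 10.26 and 9.87 in Py117 cultures. The tumour groups overlapped through Py117 tumour 3, the highest of its group, and the Py117 cultures alone were high. The interaction was 5.06 (SE 0.29, adjusted p = 1.35e-08). A tumour difference of 0.57 passed the threshold (adjusted p = 0.0169), which places Tslp in no class although its culture difference was -4.49.

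Bpifb4 and Bpifb3, secreted proteins of the BPI fold, had culture differences of -4.93 and -4.06 and interactions of 5.17 (SE 0.26, adjusted p = 2.79e-09) and 3.96 (SE 0.24, adjusted p = 2.14e-08). Both were below background in the tumours of either line. Epgn, a ligand of the EGF receptor, Artn, a neurotrophic ligand of the GDNF family, and Dsg3, a desmosomal cadherin of stratified epithelium, followed the same form, with interactions of 3.20, 2.89 and 3.02. Klk10, a secreted kallikrein-related peptidase, was lower in tumours than in culture in both lines (-1.50 in Py8119 and -4.92 in Py117), and its interaction was 3.43 (SE 0.20, adjusted p = 1.35e-08). The neutrophil chemokine Cxcl5 averaged 5.08 ± 0.14 in Py8119 tumours and 5.51 ± 0.53 in Py117 tumours, with 6.76 ± 0.24 in Py8119 cultures and 9.80 ± 0.42 in Py117 cultures (interaction 2.61, SE 0.34, adjusted p = 4.98e-05).

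Adamts5, a protease that cleaves aggrecan, was above background in all tumours. It read 6.88, 7.01, 6.85, 7.22 and 7.04 in Py8119 tumours and 6.96, 7.14, 6.58, 6.42 and 6.92 in Py117 tumours, with 5.70, 5.23 and 5.23 in Py8119 cultures and 8.19, 7.98 and 7.32 in Py117 cultures. The tumour minus culture difference was 1.61 in Py8119 and -1.03 in Py117. The line difference was 0.20 in tumours (95% interval -0.15 to 0.55) and -2.44 in culture, with an interaction of 2.64 (SE 0.27, adjusted p = 3.93e-06). Over all 137 genes of this set 27 were below the background guide in the tumours of both lines (19.7%), and over the 70 that vanished with Py8119 higher 13 were (18.6%).

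Cxcl16, the ligand of CXCR6, lost its line difference in the other way, by a gain in Py8119. It read 10.19, 10.11, 10.08, 9.66 and 9.86 in Py8119 tumours and 10.40, 10.27, 10.86, 10.77 and 10.71 in Py117 tumours. Its culture values were 5.91, 5.33 and 5.86 in Py8119 and 9.88, 10.41 and 10.14 in Py117. Py8119 cultures were near background, and every other array was far above them. A residual tumour difference of -0.62 (adjusted p = 0.00266) keeps it out of the vanishing class, and the interaction was 3.82 (SE 0.24, adjusted p = 3.49e-08). Macrophages also make Cxcl16, and the macrophage-list mean given above moved with it. Its part was not tested.

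Ccl5, a chemokine of T cells, NK cells and interferon-treated cells, came close to reversing. It read 8.84, 9.15, 9.21, 9.26 and 9.22 in Py8119 tumours and 9.61, 9.52, 10.88, 10.55 and 10.12 in Py117 tumours, with 9.54, 9.19 and 8.99 in Py8119 cultures and 6.09, 6.32 and 6.52 in Py117 cultures. The lines were separate in both settings and exchanged order. The tumour difference of -0.9955 was just short of the limit, and the interaction was -3.93 (SE 0.35, adjusted p = 8.65e-07).

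Among the 7 genes that reversed to higher in Py8119 tumours, Dynap had the largest interaction. Dynap, which encodes a transmembrane protein that binds dynactin, read 10.23, 10.37, 10.38, 10.05 and 10.14 in Py8119 tumours and 5.86, 6.64, 6.74, 6.64 and 5.75 in Py117 tumours. Cultures gave 11.04, 11.30 and 11.48 in Py8119 and 12.19, 12.66 and 12.56 in Py117. The Py117 tumours stood far below every other array. The tumour minus culture difference was -1.04 in Py8119 and -6.15 in Py117. The line difference was 3.91 in tumours and -1.20 in culture, an interaction of 5.11 (SE 0.30, adjusted p = 1.35e-08).

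Has2, the main hyaluronan synthase of mesenchymal cells, read 8.24, 8.52, 8.76, 8.61 and 8.88 in Py8119 tumours and 6.66, 7.77, 7.81, 6.92 and 7.65 in Py117 tumours, with 7.44, 7.76 and 7.35 in Py8119 cultures and 9.24, 9.66 and 9.71 in Py117 cultures. The lines were separate in both settings, in opposite order. The interaction was 3.26 (SE 0.34, adjusted p = 4.21e-06). Fbxo32, a ubiquitin ligase subunit induced in wasting muscle, behaved alike at lower levels: 7.89 ± 0.11 in Py8119 tumours and 6.60 ± 0.21 in Py117 tumours, with 6.38 ± 0.10 in Py8119 cultures and 7.61 ± 0.21 in Py117 cultures (interaction 2.52, SE 0.18, adjusted p = 8.90e-08).

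Ctla2b, a protease inhibitor of the cathepsin propeptide type, and Cbr2, a carbonyl reductase, changed between tumour and culture in Py8119 and passed no threshold in Py117. The tumour minus culture difference of Ctla2b was 2.98 in Py8119 and -0.13 in Py117 (adjusted p = 0.577), with an interaction of 3.11 (SE 0.22, adjusted p = 9.76e-08). Cbr2 averaged 11.25 ± 0.44 in Py8119 tumours and 10.19 ± 0.54 in Py117 tumours, with overlap, against 8.57 ± 0.09 in Py8119 cultures and 10.53 ± 0.21 in Py117 cultures (interaction 3.03, SE 0.37, adjusted p = 2.75e-05).

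Ch25h, which makes 25-hydroxycholesterol and is induced by interferon in macrophages, read 9.07, 9.14, 9.35, 8.79 and 9.02 in Py8119 tumours and 6.99, 7.50, 9.42, 7.43 and 7.56 in Py117 tumours. In culture it averaged 4.99 ± 0.31 in Py8119, below background, and 6.59 ± 0.30 in Py117. Py117 tumour 3 exceeded all Py8119 tumours and the other 4 Py117 tumours lay below them. The interaction was 2.90 (SE 0.52, adjusted p = 0.000952). Ppp1r14c, an inhibitor of protein phosphatase 1, had an interaction of 2.39 (SE 0.27, adjusted p = 1.27e-05). For both genes a second, dimmer probe set showed less: an interaction of 0.80 for Ch25h and -0.02 for Ppp1r14c.

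Epithelial genes were lower in Py8119 in both settings, and several of these differences narrowed in tumours. Of 34 epithelial genes the line difference was called lower in Py8119 for 30 in tumours and 32 in culture, against 16% and 12% of all genes. The interaction was positive for 10 and negative for 3, against 7.5% and 5.99%. Cdh1, E-cadherin, read 6.62, 6.61, 6.60, 7.36 and 7.24 in Py8119 tumours and 10.57, 10.43, 10.42, 10.47 and 10.74 in Py117 tumours, with 5.38, 5.66 and 5.54 in Py8119 cultures and 10.74, 10.58 and 10.54 in Py117 cultures. The lines stayed far apart, but Py8119 tumours were above Py8119 cultures by 1.36, and the interaction was 1.46 (SE 0.23, adjusted p = 0.000384). It was 0.70, and not called, when the 2 probe sets of Cdh1 were averaged. Cd24a, a surface glycoprotein of epithelium and leukocytes, and Krt7, a simple epithelial keratin, narrowed by 2.04 and 3.71 (adjusted p = 3.75e-05 and 1.10e-07). A second probe set of Cd24a gave 0.90. The tumour minus culture difference of Krt7 was -0.11 in Py8119 and -3.82 in Py117.

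Grhl1, a transcription factor of epithelial differentiation, widened. It read 4.68, 4.68, 4.74, 4.86 and 4.58 in Py8119 tumours and 9.48, 9.06, 7.91, 9.31 and 9.08 in Py117 tumours, with 4.48, 4.78 and 5.23 in Py8119 cultures and 6.63, 5.79 and 5.84 in Py117 cultures. All Py8119 arrays were below background, all Py117 tumours were above all Py117 cultures, and the interaction was -3.01 (SE 0.39, adjusted p = 5.13e-05). Elf5, a mammary transcription factor, had an interaction of -1.56 (SE 0.30, adjusted p = 0.00152).

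Other same-sign differences concerned secreted regulators and adhesion. Timp3, an inhibitor of matrix metalloproteinases, averaged 6.30 ± 0.58 in Py8119 tumours and 10.89 ± 0.29 in Py117 tumours, with 5.40 ± 0.42 in Py8119 cultures and 12.56 ± 0.08 in Py117 cultures, and narrowed by 2.57 (SE 0.37, adjusted p = 0.000143). Grem1, a BMP antagonist, averaged 7.17 ± 0.20 in Py8119 tumours and 6.12 ± 0.46 in Py117 tumours, with 10.26 ± 0.14 in Py8119 cultures and 6.10 ± 0.41 in Py117 cultures, and had an interaction of -3.11 (SE 0.31, adjusted p = 3.36e-06). Car9, a carbonic anhydrase induced by hypoxia, had a tumour minus culture difference of 2.13 in Py8119 and -2.09 in Py117, with an interaction of 4.22 (SE 0.57, adjusted p = 7.17e-05). The value for Car9 was 1.09 in a second probe set. Cdh2, N-cadherin, widened: it read 10.77, 10.61, 10.62, 10.73 and 10.53 in Py8119 tumours and 6.64, 7.80, 7.28, 6.72 and 6.57 in Py117 tumours, with 11.17 ± 0.01 in Py8119 cultures and 9.78 ± 0.08 in Py117 cultures. Py117 tumours were below all other arrays, and the interaction was 2.26 (SE 0.29, adjusted p = 4.15e-05).

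Bmp4, a growth factor of the TGF-beta family, changed sign between settings, but its culture difference of -0.66 was under the limit for a reversal. It read 9.89, 9.69, 9.48, 8.96 and 9.30 in Py8119 tumours and 6.44, 6.91, 6.27, 6.56 and 6.43 in Py117 tumours, with 8.99, 9.16 and 8.996 in Py8119 cultures and 9.75, 9.80 and 9.59 in Py117 cultures. The Py117 tumours were below all other arrays. The interaction was 3.60 (SE 0.24, adjusted p = 6.20e-08).

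Immediate early genes, which growth factors switch on quickly, were called positive for 9 of 20 and negative for none. The line difference in culture was called lower in Py8119 for 12 of the 20 (12% of all genes) and higher for none. In tumours it was called lower for 6 (16%) and higher for 5 (20.6%). Fos averaged 6.18 ± 0.29 in Py8119 tumours and 6.80 ± 0.11 in Py117 tumours, with 5.07 ± 0.44 in Py8119 cultures and 7.65 ± 0.54 in Py117 cultures (interaction 1.97, SE 0.31, adjusted p = 0.000298), and Egr1 had an interaction of 1.53 (SE 0.34, adjusted p = 0.00506). Among 20 p53 targets 6 were called positive and 1 negative, against 7.5% and 5.99% of all genes. Cdkn1a, the cell cycle inhibitor p21, had line differences of -0.73 in tumours and -1.94 in culture (interaction 1.21, SE 0.25, adjusted p = 0.00274), and the value was 0.74 with the adipocyte-list mean as a covariate.

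Several lists showed shares of calls near those of all genes. Of 29 cell cycle genes 3 were called, all positive, and of 24 DNA repair genes 1 in each direction. The line difference in tumours was called higher in Py8119 for 22 of 29 and 16 of 24 of these genes, against 20.6% of all genes. In culture it was already called higher in Py8119 for 8 of 29 and 12 of 24, against 13.9% of all genes. The cell cycle list had 9 positive calls without Py117 tumours 1, 4 and 5. Pericyte (1 of 14), mast cell (1 of 13) and skeletal muscle (2 of 12) lists had few calls as well.

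Among the genes named whatever their values, 6 had no called interaction. Lcn2, the siderophore-binding lipocalin, differed by -5.86 in tumours and -5.56 in culture, and Epcam by -5.14 and -5.51. Vim, vimentin, differed by 1.07 and 1.27, and Axl, a receptor kinase of mesenchymal cells, by 1.57 and 1.34. For Gas6, which binds Axl, the differences were -0.58 and -0.87. Ccl2, a monocyte chemokine, differed by 2.15 and 1.53 with wide spread in Py117 tumours (7.62 ± 1.09). Its interaction of 0.62 (SE 0.62, adjusted p = 0.601) passed the threshold at 1.08 without Py117 tumour 3.

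The mixed tumours, which enter none of these tests, mostly lay near Py8119. Of the 159 genes that appeared higher in Py8119 the mixed mean was nearer to Py8119 tumours for 158, and of the 333 that appeared lower for 271. It lay between the means of both parents for 127 and 293. For scale, among the 2030 called genes of no class the mixed mean was nearer to Py8119 for 1589 and between the parents for 1341. The count of 271 of 333 is thus close to that of called genes outside the classes. Of the 19 called interferon-gamma genes, in contrast, the mixed mean was nearer to Py117 tumours for 17. It was nearer to Py117 also for 7 of 9 called MHC class I genes, 4 of 4 MHC class II genes and 3 of 4 cytotoxic and natural killer cell genes. Cxcl9 read 10.98, 11.58, 12.39, 11.54 and 11.05 in the mixed tumours, within the Py117 range, and Cxcl10 read 9.08, 9.61, 10.80, 9.85 and 9.35. Of the 27 called type I interferon genes the mixed mean was nearer to Py8119 for 17 and nearer to Py117 for 10, and for endothelial genes it was nearer to Py8119 for 15 of 15. Irf7 read 8.16, 8.35, 9.16, 8.78 and 8.10, between the tumour ranges of the lines in all 5. These are descriptions without a test.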

How the data were processed

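Total RNA was labelled (WT PLUS) and hybridised to Affymetrix mouse arrays that probe whole transcripts. The deposited table holds log2 values that the authors made with RMA (background correction, quantile normalization and probe summary), per the submitters' processing notes, where limma is named as well. Versions, annotation and batches are not given in the sources used here. Of 41345 probe sets, 23521 had 1 symbol, 1814 several and 16010 none. Each of 22180 genes was represented by its probe set of highest mean over the 21 arrays, and 1082 genes had several. RMA makes arrays share a distribution, so values are relative to each array as a whole. The number of arrays limits the precision.

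A cell-means model of the 4 groups (16 arrays) was fitted with limma 3.58.1 in R 4.3.3, and the interaction and its component differences were taken as contrasts, with Benjamini-Hochberg adjustment over all 22180 genes. All p-values are from this fit, are two-sided, and measure the spread between arrays of a group. The fit was tested on simulated data. Named genes were the 8 of largest interaction in each appearing, vanishing or reversing set, up to 4 called genes of largest interaction in each of 35 lists (709 of 782 entries measured), and a set of single genes named whatever their values. The background guide was chosen after values were seen. The members and lists were chosen with earlier results of these data known. Alternatives covered scaling, probe choice, filters, priors, weights, a replicate block, an adipocyte covariate, thresholds and single arrays left out.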

Additional observations from a re-analysis of the deposited data

Results flagged for a closer look

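Of 128 groups of 5 tumours tested for a value standing apart from the others, 12 were picked out, where chance gives about 1 in 20. In Py117 tumour 3, Ch25h read 9.423 (next highest 7.564), Lgals3bp 12.319 (next 11.844), Sp100 10.1 (next 9.451) and Tslp 6.046 (next 5.248). In Py117 tumour 5, Egln3 read 12.38 (next 10.634), Ccr1 7.576 (next 6.833) and Cxcl5 6.436 (next 5.382). In Py8119 tumour 4, Ccr1 was lowest at 8.64 (next 9.275), while Sparc was highest at 11.984 (next 11.693) and Elapor1 at 5.484 (next 5.197). In Py8119 tumour 1, Ccl5 was lowest at 8.844 (next 9.15) and Csf3 at 4.997 (next 5.308), the Csf3 value lying at background.

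The line difference itself differed between tumours and culture, by the interaction test, for 1664 genes with a positive and 1328 genes with a negative interaction.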

How the results depend on the processing

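The interaction counts of 1664 positive and 1328 negative genes stayed within 1.5 times under all alternatives except the threshold of 0.01, which left 962 and 712 by construction. Positive calls made up 55.6% of calls, against 53.4% after quantile normalization, 48.2% after median centring, 60.8% with the adipocyte covariate and 62.6% without Py117 tumours 1, 4 and 5. The median interaction over all genes was between -0.01 and 0.07 throughout. Leaving out single arrays gave 1283 to 1858 positive and 998 to 1790 negative calls. Differences higher in cultured Py8119 that vanished numbered 61 to 122 (main value 70), the highest without Py8119 culture 1; the cause was not tested. Genes reversing to lower, 8 in all, were 16 after quantile normalization and 13 after median centring; the cause was not tested. A minimum of 0.58 for a difference that is present, a wider definition by construction, gave 428 appearing higher, 205 vanishing higher, 292 vanishing lower, 47 reversing to higher and 26 reversing to lower. Requiring the 95% interval within -1 to 1 for an absent difference gave 133 vanishing higher and 266 vanishing lower. The other class counts stayed within 1.5 times. Of 159 named genes, 132 kept their side of the threshold under every alternative run for them (27, or 1 fewer for genes too dim for the filter on dim genes), 26 lost their call under at least 1, Ccl2 gained one, and none changed sign while called. Replicate numbers did not pair the tumours: deviations of same-numbered tumours correlated at -0.19 to 0.10, against -0.17 to 0.21 for differently numbered ones. Same-numbered cultures correlated weakly, at 0.04 to 0.14, against -0.10 to 0.07 for differently numbered ones. For Py8119 cultures 2 and 3 the same-numbered value was the highest. With the replicate block, 1553 positive and 1255 negative genes were called, 2650 of them shared with the fit without it. Genes near the background guide of 5.36 cannot show a difference between groups that are both there, and each line is 1 clone with 3 cultures.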
